A study of Mus musculus with 4 samples.

Results

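The transcripts described here belong to 41 genes that carry fatty acids into the muscle cell, burn them in mitochondria and feed the TCA cycle. They were listed by name, and the rule that lists them uses no measured value. The list was, however, chosen with earlier results of these data known. Shares of its genes set against all features below are therefore not independent of those results. All 41 had a probe on the array, with 64 of the 41174 probes that were not controls. Of the 41, 40 entered the comparison, among 17444 features tested in all. By role they comprise 9 genes of uptake and activation, 15 of mitochondrial import and beta-oxidation, 2 uncoupling proteins, 3 of the pyruvate dehydrogenase step and 12 of the TCA cycle.

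Expression was measured in C2C12, an established line of mouse myoblasts whose cells fuse into myotubes in low serum. Cells treated with GDF8 received 20 nM recombinant mouse myostatin every 24 h through 6 days of differentiation, and untreated cells went through the same 6 days without it. Both groups had been grown in medium with 10% fetal bovine serum before they were moved to horse serum, which the growth protocol gives as 2% and the source names as 10%. Each of 4 two-colour Agilent arrays on 1 slide held 1 GDF8 and 1 untreated RNA, with GDF8 in the Cy3 dye for replicates 1 and 4 and in Cy5 for replicates 2 and 3. The labels call these biological replicates but do not say how the cultures were kept apart, so p-values measure the spread between these 4 arrays, which may in part be technical. The comparison asks whether myostatin during differentiation changes the transcripts of fatty acid use.

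Muscle cells free fatty acids from circulating lipoproteins, take them up across the plasma membrane and join them to coenzyme A. Carnitine then carries the acyl groups into mitochondria, where beta-oxidation shortens them step by step to acetyl-CoA, and the TCA cycle oxidises that acetyl-CoA together with the acetyl-CoA made from pyruvate. Oxidative muscle and mature myotubes are rich in these enzymes. Myostatin is a TGF-beta family ligand that restrains muscle growth and differentiation.

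Each value below is either a log2 ratio within an array, GDF8 over untreated, or one of the normalised log2 signals of the dye channels. A gene is represented by its brightest probe unless another is named, and levels of different genes are not compared, because probes differ in brightness. The ± after a ratio is the standard error of the limma fit over 4 arrays, and adjusted p-values are from limma with Benjamini-Hochberg adjustment over all 17444 features, with a threshold of 0.05.

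After 6 days with GDF8, the fatty acid translocase gene Cd36 and the lipoprotein lipase gene Lpl were lower, and the uncoupling protein gene Ucp2 was higher. The other 37 of the 40 tested genes did not pass, among them all 15 of import and beta-oxidation, all 3 of the pyruvate dehydrogenase step and all 12 of the TCA cycle. The calls were 2 lower and 1 higher of the 40 genes, against 2.3% lower and 0.86% higher of all features (3.16% in either direction). Many of the probes were too bright for the scanner: 25 of the 40 genes (62.5%) had a saturated channel at their brightest probe, against 24.31% of all features. These were 10 TCA cycle, 9 oxidation, 5 uptake and 1 pyruvate dehydrogenase genes. In 20 of the 25 no array was free of saturation, and for these no estimate from that probe is given. In RNA from whole cultures, a lower ratio from fewer cells of a type and from less RNA per cell cannot be told apart.

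**Figure D1:**
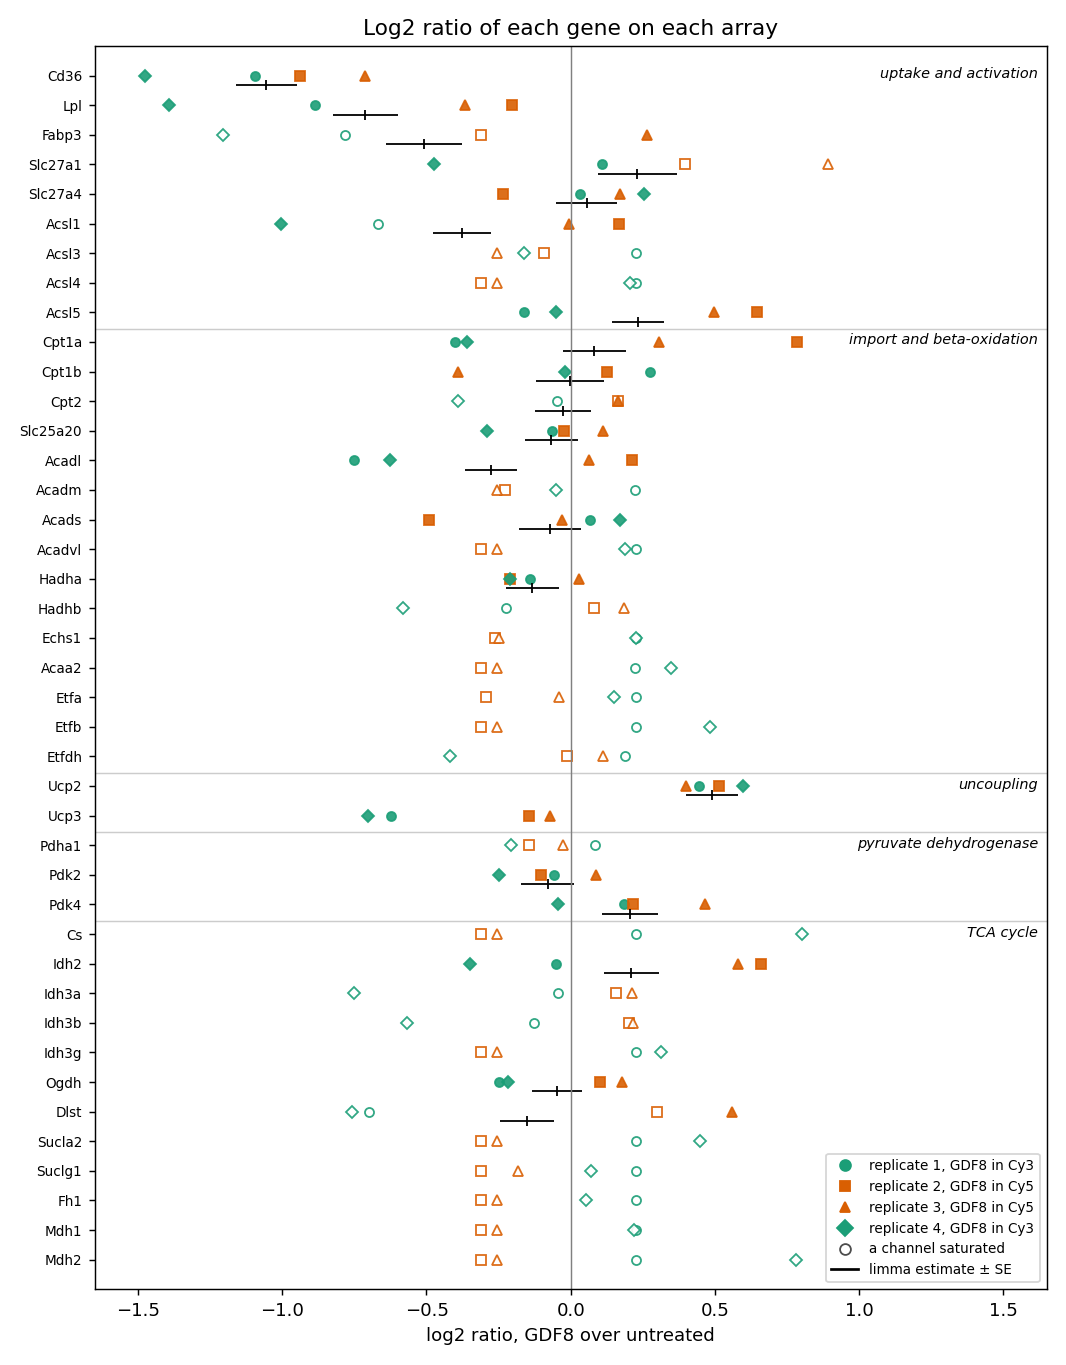
Log2 ratio of GDF8 over untreated cells (x axis) for each of the 41 genes on each of the 4 arrays, by role, with open symbols where a channel was saturated and a black bar for the limma estimate ± SE; the bar is left out for Ucp3 (not tested) and for the 20 genes with no array free of saturation. Cd36 and Lpl lie below 0 on all 4 arrays and Ucp2 above 0, while many genes of oxidation and the TCA cycle show open symbols that fall on a common value within replicates 1, 2 and 3.

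Uptake and activation held both genes that passed as lower. Cd36 encodes the membrane protein that helps long-chain fatty acids into muscle cells. Its normalised log2 signals on replicates 1 to 4 were 10.65, 11.03, 11.32 and 10.55 in GDF8-treated cells, against 11.74, 11.97, 12.03 and 12.03 in untreated cells. Every GDF8 channel lay below every untreated channel. The mean was 10.89 ± 0.35 in GDF8-treated and 11.94 ± 0.14 in untreated cells (SD, n = 4 each). The ratios were -1.09, -0.94, -0.71 and -1.48, which gave -1.06 ± 0.11, or 2.08-fold lower (95% interval -1.31 to -0.80, adjusted p = 0.010 in limma). None of its 8 channels was saturated. A second Cd36 probe, also free of saturation, gave -1.14 with ratios between -1.49 and -0.99.

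Lpl encodes the lipase that releases fatty acids from lipoprotein triglycerides outside the cell. Its log2 signals were 13.76, 14.40, 14.06 and 13.83 in GDF8-treated cells, against 14.65, 14.60, 14.43 and 15.23 in untreated cells. The groups did not overlap, though the highest GDF8 value, on replicate 2, and the lowest untreated value, on replicate 3, nearly met. The ratios were -0.89, -0.20, -0.37 and -1.39, and the estimate was -0.71 ± 0.11, or 1.64-fold lower (adjusted p = 0.027 in limma). The size differed with the dye: the ratios averaged -1.14 with GDF8 in Cy3 and -0.29 with GDF8 in Cy5, and the mean of Cd36 was -1.28 and -0.83 in the same arrays. A second Lpl probe was more even, at -0.48, -0.51, -0.57 and -0.82 on the 4 arrays with an estimate of -0.59. The Lpl call was lost without replicate 2 (adjusted p = 0.094 in limma), replicate 3 (0.089) or replicate 4 (0.079), while Cd36 kept its call whichever replicate was left out (adjusted p between 0.013 and 0.045 in limma).

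**Figure D2:**
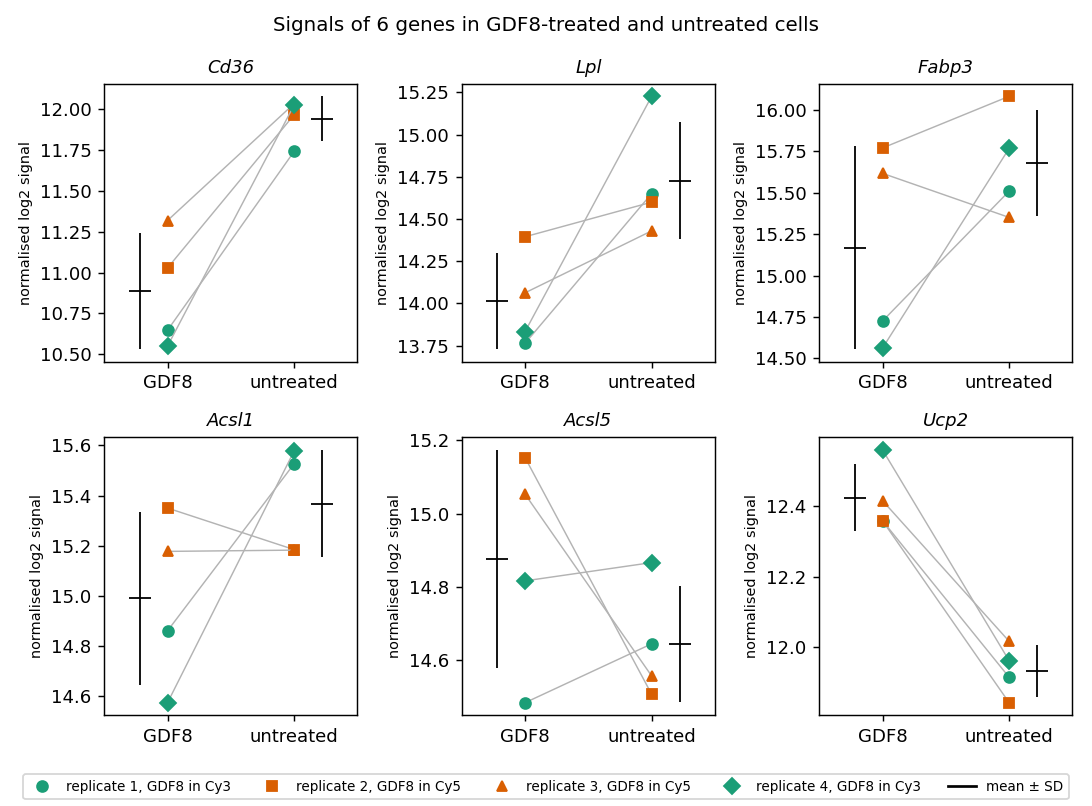
Normalised log2 signal (y axis, scaled for each gene) of 6 genes in GDF8-treated and untreated cells, with a grey line joining the 2 channels of an array and bars for the mean ± SD (n = 4). The groups do not overlap for Cd36, Lpl and Ucp2 and overlap for Fabp3, Acsl1 and Acsl5, where the GDF8 channels of the 2 dye orientations lie apart.

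The 250 bases before the start of Cd36 are shown because it had the largest fall among the genes that passed. They come from RefSeq for build GRCm38.p6, at chr5:17835897-17836146 on the minus strand, with 43.2% G and C. Capitals mark a nuclear receptor hexamer (AGGTCA, here on the reverse strand as TGACCT), the unit of the elements bound by PPAR and related receptors, and an E-box (CANNTG), the element bound by MyoD family factors. Their first bases are at -228 and -150, counted from the last base before the start as -1.
Cd36: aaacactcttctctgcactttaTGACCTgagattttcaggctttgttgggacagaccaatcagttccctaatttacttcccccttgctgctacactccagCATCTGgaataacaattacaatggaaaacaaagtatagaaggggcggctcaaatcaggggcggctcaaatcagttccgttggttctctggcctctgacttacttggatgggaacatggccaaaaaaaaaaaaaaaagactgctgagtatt
RefSeq promoters of this length were searched on both strands. Of the 46 found for 37 of the 41 genes, 17.4% held the hexamer and 73.9% an E-box, against 14% and 66.2% of all 32851. The genes with a hexamer were Acadm, Acadvl, Cd36, Cpt1a, Echs1, Fh1, Sucla2 and Ucp3. The median G and C content was 58.8% in these 46 and 52.4% in all promoters. None of the 46 held the extended element bound by estrogen-related receptors (TCAAGGTCA, 0.387% of all) or the palindromic Smad element GTCTAGAC (0.167% of all). A match here is only a run of letters.

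Fabp3, the fatty acid-binding protein of muscle cytosol, gave -0.78, -0.31, 0.27 and -1.20 on the 4 arrays. It was saturated in 1 GDF8 and 3 untreated channels, and only replicate 3, the array with the positive ratio, was free of saturation. The estimate of -0.51 ± 0.13 did not pass (adjusted p = 0.13 in limma). With arrays centred on their median in place of loess it was -0.71 and passed (adjusted p = 0.0047 in limma).

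The long-chain acyl-CoA synthetases trap fatty acids in the cell by joining them to coenzyme A. For Acsl1, the main form of muscle and fat, the brightest probe gave -0.67, 0.17, -0.005 and -1.01, with 1 untreated channel saturated, and an estimate of -0.38 ± 0.10 (adjusted p = 0.14 in limma). Its brightest unsaturated probe was more even, at -0.33, -0.41, -0.23 and -0.50. That probe gave -0.37 ± 0.10, its signals in the groups did not overlap, and it did not pass among probes never saturated (adjusted p = 0.12 in limma). Acsl5 gave -0.16, 0.65, 0.50 and -0.05, so that its sign followed the dye orientation, with an estimate of 0.23 ± 0.09 (adjusted p = 0.34 in limma).

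The brightest Acsl4 probe was saturated in all 4 untreated and 3 GDF8 channels, so no ratio is given for it. An unsaturated Acsl4 probe gave -0.64, -7.0e-05, 0.02 and -0.79, with -0.35 ± 0.09 (adjusted p = 0.12 in limma). Acsl3 was saturated in 3 channels of each group. The fatty acid transport proteins also did not pass. Slc27a1 gave 0.23 ± 0.14 at its brightest probe, with 2 GDF8 channels saturated. At an unsaturated probe it gave 0.09, 0.34, 1.13 and 0.17, an estimate of 0.43 ± 0.14, with the GDF8 channels all above the untreated ones (adjusted p = 0.21 in limma). Slc27a4 gave 0.06 ± 0.11.

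Of the 15 genes of mitochondrial import and beta-oxidation, 0 passed in either direction, and 8 had no array free of saturation at the brightest probe. The 7 with a probe never saturated gave estimates between -0.28 and 0.08, with standard errors between 0.093 and 0.12. An unadjusted p under 0.05 in limma was found for 1 of the 15 (Acadl), against 12.5% of all features. It was found for 5 of the 9 uptake genes, with Cd36, Lpl, Fabp3 and Acsl1 lower and Acsl5 higher. Of these, Fabp3 and Acsl1 had saturated channels, and the sign of Acsl5 followed the dye orientation. Because 8 of the 15 were saturated on every array, the count in oxidation cannot be read against the share of all features. Nor can the count in uptake, where 5 of the 9 genes had a saturated channel. The median estimate, saturated probes included, was -0.03 in oxidation and -0.07 in uptake and activation, against 0.01 over all features. Whether the roles differ from each other was not tested.

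The carnitine step was measured with little saturation. Cpt1a, the widely expressed carnitine palmitoyltransferase of the outer membrane, gave -0.40, 0.78, 0.31 and -0.36, with an estimate of 0.08 ± 0.11. Its sign followed the dye, and a second probe gave 0.11. Cpt1b, the muscle form and the main control point of fatty acid entry into muscle mitochondria, gave 0.27, 0.13, -0.39 and -0.02, with an estimate of -0.003 ± 0.12 (95% interval -0.29 to 0.28). Cpt1b signals were 11.34, 11.08, 10.47 and 10.86 in GDF8-treated cells, against 11.07, 10.95, 10.86 and 10.88 in untreated cells, so that the GDF8 channels spanned the untreated ones. Slc25a20, the carnitine-acylcarnitine carrier of the inner membrane, gave -0.07 ± 0.09. Cpt2, which returns the acyl group to coenzyme A inside, gave -0.03 ± 0.10 with 3 saturated channels, and 0.16 on replicate 3, the only array free of saturation.

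The acyl-CoA dehydrogenases carry out the opening step of each round, each on its own range of chain lengths. Acadl, the long-chain enzyme, gave -0.75, 0.21, 0.06 and -0.62 with no channel saturated. Its signals were 14.51, 14.40, 14.60 and 14.06 in GDF8-treated cells, against 15.26, 14.19, 14.54 and 14.68 in untreated cells, and the groups overlapped. The estimate was -0.28 ± 0.09 and did not pass (adjusted p = 0.24 in limma). Acads, the short-chain enzyme, gave -0.07 ± 0.11 without saturation. Acadm, the medium-chain enzyme, was saturated in 3 channels of each group, and Acadvl, the very-long-chain enzyme, was saturated in the whole untreated group.

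The trifunctional protein completes the rounds on long chains. Its alpha subunit Hadha gave -0.14, -0.21, 0.03 and -0.21, with an estimate of -0.13 ± 0.09 and no saturation, and a second probe gave -0.31 ± 0.14. The beta subunit Hadhb gave -0.23, 0.08, 0.18 and -0.58, with 1 channel saturated on each array. Neither passed. Echs1, the short-chain enoyl-CoA hydratase, had 3 channels of each group saturated. The thiolase Acaa2 and the electron transfer flavoprotein subunit Etfb were saturated in the whole untreated group. The other subunit, Etfa, had 5 saturated channels. Etfdh, which passes the electrons on to ubiquinone, was saturated on every array at its brightest probe and gave -0.06 ± 0.09 at an unsaturated one.

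Ucp2, an inner-membrane carrier of the uncoupling protein family, was the only one of the 40 tested genes to pass as higher. Its log2 signals were 12.36, 12.36, 12.42 and 12.56 in GDF8-treated cells, against 11.92, 11.84, 12.02 and 11.96 in untreated cells. All 4 GDF8 channels lay above all 4 untreated channels, and the means were 12.42 ± 0.09 in GDF8-treated and 11.93 ± 0.07 in untreated cells (SD, n = 4 each). The ratios of 0.44, 0.52, 0.40 and 0.60 hardly differed with the dye, averaging 0.52 with GDF8 in Cy3 and 0.46 with GDF8 in Cy5. The estimate was 0.49 ± 0.09, or 1.40-fold higher (95% interval 0.27 to 0.70, adjusted p = 0.043 in limma). The call was lost whichever of the 4 replicates was left out (adjusted p between 0.075 and 0.27 in limma), with estimates between 0.45 and 0.53. With the authors' deposited log2 table it was 0.52 and did not pass (adjusted p = 0.080 in limma). Dimmer Ucp2 probes were not tested, since each counted as well above background in only 3 of 4 channels of each group. The brighter of them had no value on replicate 1, where it was left out as an outlier, and gave 0.58, 0.22 and 0.32 on replicates 2 to 4. The dimmest gave -0.09, 0.41, 0.24 and -0.09 on replicates 1 to 4.

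Ucp3, the uncoupling protein of skeletal muscle, is the gene before Ucp2 on the same strand of chromosome 7. It was near the detection limit, well above background in 2 of 4 GDF8 and 3 of 4 untreated channels, and was not tested. Its log2 signals were 7.04, 7.60, 7.77 and 7.45 in GDF8-treated cells, against 7.66, 7.74, 7.84 and 8.15 in untreated cells. The ratios were negative on all 4 arrays (-0.62, -0.14, -0.07 and -0.70), but the groups overlapped. The 250 bases before the annotated start of 1 transcript of each are shown to set the gene that passed as higher beside its neighbour. They come from RefSeq for GRCm38.p6, on the plus strand, at chr7:100493108-100493357 for Ucp2 and chr7:100472741-100472990 for Ucp3.
Ucp2: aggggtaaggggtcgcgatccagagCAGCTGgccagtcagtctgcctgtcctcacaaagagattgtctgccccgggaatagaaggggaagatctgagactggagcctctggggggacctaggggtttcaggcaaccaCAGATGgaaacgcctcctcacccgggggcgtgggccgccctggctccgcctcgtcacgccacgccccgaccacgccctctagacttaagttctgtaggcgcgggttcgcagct
Ucp3: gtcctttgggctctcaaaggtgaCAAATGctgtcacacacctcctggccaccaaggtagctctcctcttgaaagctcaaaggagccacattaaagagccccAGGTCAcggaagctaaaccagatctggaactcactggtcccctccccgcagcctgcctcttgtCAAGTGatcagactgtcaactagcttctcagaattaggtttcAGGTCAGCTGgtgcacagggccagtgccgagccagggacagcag
Capitals again mark the hexamer AGGTCA and the E-box CANNTG. Ucp2 held E-boxes at -225 and -113 and no hexamer. Ucp3 held E-boxes at -227, -86 and -40 and hexamers at -149 and -44, the last of which shares bases with the E-box at -40. The G and C content was 63.6% for Ucp2 and 54.8% for Ucp3.

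The 3 genes of the pyruvate dehydrogenase step set how much acetyl-CoA comes from sugar. Pdk4, a kinase that shuts off the complex and is known to be induced when fat is burned, gave 0.18, 0.22, 0.47 and -0.04, with an estimate of 0.21 ± 0.10 (adjusted p = 0.50 in limma). Its signals were 14.10, 14.90, 14.97 and 14.64 in GDF8-treated cells, against 13.92, 14.69, 14.51 and 14.68 in untreated cells, with the groups overlapping. Pdk2, another of these kinases, gave -0.06, -0.10, 0.09 and -0.25, or -0.08 ± 0.09. Pdha1, the catalytic alpha subunit of the complex, gave 0.08, -0.14, -0.03 and -0.21, with 1 channel saturated on each array.

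Of the 12 TCA cycle genes, 0 passed. At the brightest probe an unadjusted p under 0.05 in limma was found for 0 of them, against 12.5% of all features. However, 10 had a saturated channel at that probe and 9 had no array free of saturation, and Mdh1 had such a p at its dimmer probes. Citrate synthase (Cs), which begins the cycle, and the mitochondrial malate dehydrogenase Mdh2, which closes it, were saturated in all 8 channels. Idh3g (a regulatory subunit of the NAD-dependent isocitrate dehydrogenase), Sucla2 (a succinyl-CoA synthetase subunit), Fh1 (fumarate hydratase) and Mdh1 (the cytosolic malate dehydrogenase) were saturated in all 4 untreated and 3 GDF8 channels. No ratio is given for these 6 genes at that probe. A second Cs probe had 2 saturated channels in each group. A second Sucla2 probe, with 1 in each group, gave -0.51, 0.46, 0.38 and -1.18.

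The 2 TCA genes free of saturation at the brightest probe were Idh2 and Ogdh. Idh2, the NADP-dependent mitochondrial isocitrate dehydrogenase, gave -0.05, 0.66, 0.58 and -0.35, so that its sign followed the dye orientation. Its estimate was 0.21 ± 0.10 and did not pass (adjusted p = 0.46 in limma). Ogdh, the oxoglutarate-binding subunit of oxoglutarate dehydrogenase, gave -0.25, 0.10, 0.18 and -0.22, or -0.05 ± 0.09. Dlst, another subunit of that complex, gave -0.70, 0.30, 0.56 and -0.76, or -0.15 ± 0.09, with 3 saturated channels, and its unsaturated probes gave -0.04 and 0.04. The NAD-dependent isocitrate dehydrogenase subunits Idh3a and Idh3b and the succinyl-CoA synthetase subunit Suclg1 had a saturated channel on every array.

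Mdh1 also had an unsaturated probe, its dimmest. That probe gave -0.56, -0.44, -0.23 and -0.13, lower on all 4 arrays. The means were nearly equal in the 2 dye orientations, at -0.35 with GDF8 in Cy3 and -0.33 with GDF8 in Cy5. Its signals were 8.94, 8.97, 9.15 and 9.44 in GDF8-treated cells, against 9.51, 9.40, 9.38 and 9.57 in untreated cells, and replicate 4 made the groups overlap. The estimate was -0.34 ± 0.11 and did not pass among probes never saturated (unadjusted p = 0.020, adjusted p = 0.21 in limma). Another Mdh1 probe, with 2 saturated channels in each group, gave -0.52, -0.26, -0.09 and -0.40. Its estimate was -0.32 ± 0.09 in a limma fit of all probes (unadjusted p = 0.010, adjusted p = 0.17 in limma).

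Genes saturated in both channels shared nearly the same ratio within an array. On replicate 1, 15 of the 40 genes were saturated in both channels and their ratios all lay between 0.2231 and 0.2266. On replicate 2, 12 genes lay between -0.3117 and -0.3107, on replicate 3, 13 genes between -0.2566 and -0.2487, and on replicate 4, 2 genes between 0.780 and 0.8035. The value was thus positive where GDF8 was in Cy3 and negative where it was in Cy5. The genes with neither channel saturated (16, 16, 19 and 17 on replicates 1 to 4) ranged from -1.09 to 0.44, -0.94 to 0.78, -0.71 to 0.58 and -1.48 to 0.60.

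**Figure D3:**
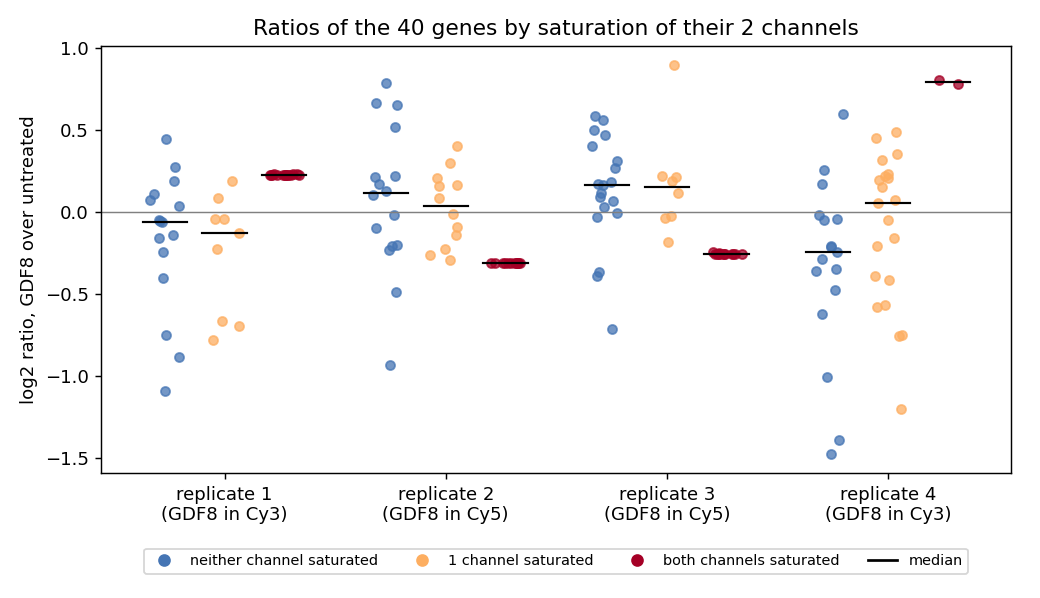
Log2 ratio of GDF8 over untreated cells (y axis) of the 40 tested genes on each array, split by whether neither, 1 or both channels of the spot were saturated, with a black line for the median. Genes saturated in both channels collapse on 1 value per array, above 0 where GDF8 was in Cy3 and below 0 where it was in Cy5.

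The sign of the mean ratio was opposite in the 2 dye orientations for 32 of the 40 genes (80%), against 60.9% of all features. With the brightest probe never saturated, 21 of the genes could be tested, and the sign was opposite in 11 of them (52.4%), against 52.8% of all features. Of these 21 genes, 6 had the same sign on all 4 arrays (28.6%, against 18.8% of all features): Cd36, Lpl, Acsl1 and Mdh1 were negative, and Slc27a1 and Ucp2 positive. The calls with such probes were Cd36, Lpl and Ucp2 again, where 2.71% of 15100 features were called lower and 1.09% higher (3.79% in either direction).

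With probes never saturated, the median ratio was -0.35 over 7 uptake and activation genes, -0.07 over 7 oxidation genes and -0.05 over 4 TCA cycle genes, against 0.01 over all features. The 7 uptake genes ranged from -1.06 to 0.43, with 4 negative and 3 positive. Their median is the estimate of Acsl4, which did not pass and averaged -0.72 with GDF8 in Cy3 and 0.009 with GDF8 in Cy5. The uptake median was -0.07 with the brightest probes, and on the 4 arrays it was -0.33, -0.20, 0.02 and -0.50 with unsaturated ones. Signals in the groups did not overlap for Cd36, Lpl and Ucp2 among the 40 brightest probes, where 3.77% of all features had GDF8 below and 1.99% GDF8 above.

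Among the 37 genes that did not pass, the 12 with no saturated channel had 95% intervals within -0.49 and 0.45, all inside the 1.6-fold change that the study's design text used as its limit. Differences smaller than these intervals were not resolved with 4 arrays, and for genes with saturated channels the interval does not bound the change.

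Other genes of the same pathways were tested in the same fit. Of 39 other fatty acid oxidation genes tested and 33 other genes of the TCA cycle and pyruvate entry, 0 passed in either direction (medians -0.04 and -0.02), with a saturated channel in 14 and 17 of them. Of 21 other genes of uptake, storage and release, 1 was lower and 1 higher, against 2.3% and 0.86% of all features. Acsl6, an acyl-CoA synthetase related to Acsl1, gave -1.07, -0.95, -0.63 and -1.34 and fell by 1.00 ± 0.10 on the log2 scale (adjusted p = 0.011 in limma). Mgll, the lipase of the last step of triglyceride breakdown, gave 0.47, 0.37, 0.66 and 0.55 and rose by 0.51 ± 0.10 (adjusted p = 0.044 in limma). In both genes all GDF8 channels lay on 1 side of all untreated channels, where 3.77% of all features had GDF8 below and 1.99% GDF8 above. The same held for Dgat2 (GDF8 below), Acly and Slc25a1 (GDF8 above), which did not pass.

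Of 23 tested regulators of fatty acid oxidation genes, 3 were lower and 0 higher, with a median of -0.11, against 2.3% lower and 0.86% higher of all features. Rxrg, 1 of the 3, and the uncalled Esrrb and Esrrg entered through the untreated group alone, where they were higher. The list was also chosen with earlier results of these data known, so its count and median are not independent of them. Ppargc1a, the coactivator PGC-1alpha that drives mitochondrial genes, gave -0.97, -1.18, -0.34 and -0.83, or -0.83 ± 0.15 (adjusted p = 0.037 in limma). Prkaa2, a catalytic subunit of the energy sensor AMPK, gave -0.54, -0.80, -0.93 and -0.48, or -0.69 ± 0.09 (adjusted p = 0.015 in limma). Rxrg, a nuclear receptor that pairs with PPARs, gave -1.01, -1.28, -0.92 and -1.11, or -1.08 ± 0.10 (adjusted p = 0.0090 in limma). Rxrg entered through the untreated group alone, being well above background in 3 of 4 GDF8 channels. Entry of this kind favours a lower ratio, so its call is not independent of the filter. Its size also rests in part on a GDF8 channel that was not well above background. In all 3 genes every GDF8 channel lay below every untreated channel, as in 3.77% of all features, and none was saturated. The same held for Esrra and Prkab2, which did not pass. Ppara, Pparg and Esrra, receptors that act on oxidation genes, gave -0.16, 0.09 and -0.19 without passing.

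**Figure D4:**
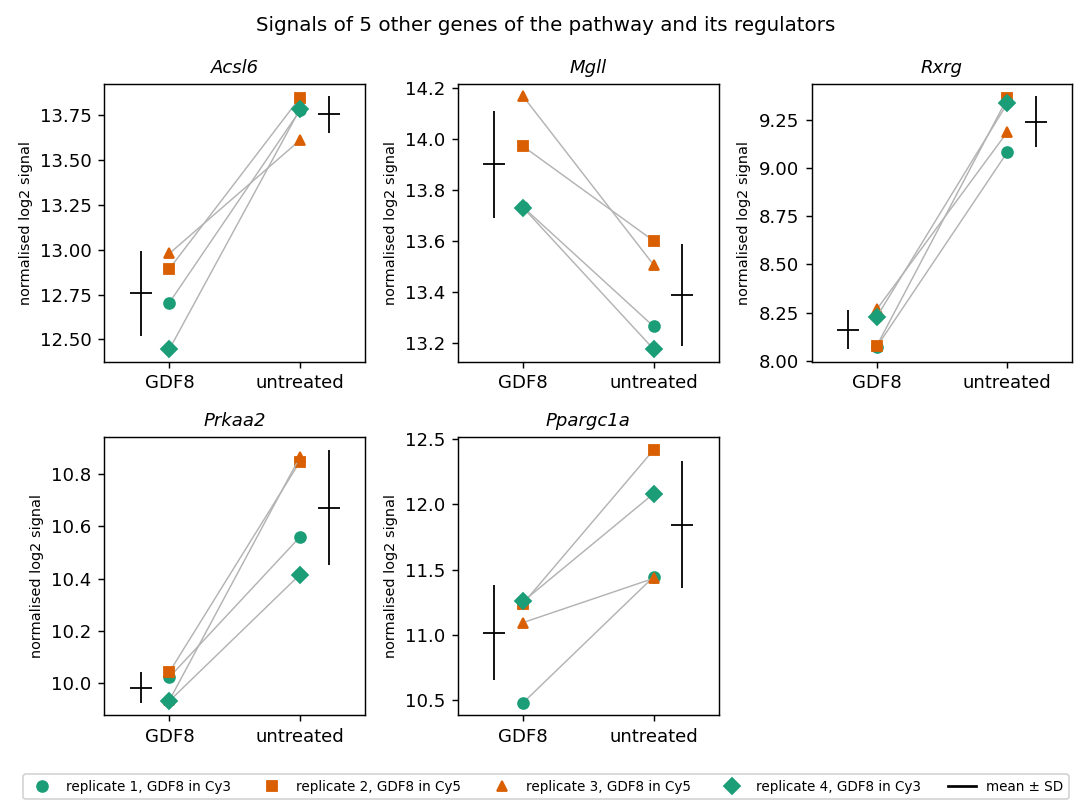
Normalised log2 signal (y axis, scaled for each gene) of the 5 other pathway and regulator genes past the threshold, in GDF8-treated and untreated cells, with a grey line joining the channels of an array and bars for the mean ± SD (n = 4). The GDF8 channels lie below the untreated ones for Acsl6, Rxrg, Prkaa2 and Ppargc1a and above them for Mgll.

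The arrays carried a muscle profile in both groups. All 18 skeletal muscle markers with a probe were well above background in all 8 channels, 13 of them saturated in the whole untreated group. Of the 18, 1 was lower, against 2.3% of all features. That was the muscle creatine kinase gene Ckm (-0.93, adjusted p = 0.049 in limma), whose signals in the groups overlapped. A channel was saturated in 15 of the 18, so this count cannot be read against that share. Cd36 and Lpl are also high in adipocytes. Of 9 adipocyte markers 3 were tested and 0 passed (Fabp4 -0.06, Cebpa 0.14, Pparg 0.09), Cfd and Lep were not well above background in any channel, and Adipoq was so in 1 of 4 GDF8 and 3 of 4 untreated channels. The summed linear signal of these 9 markers was 24400 to 29970 in GDF8-treated and 23260 to 29760 in untreated cells, most of it from Pparg and Cebpa. The 7 others summed to 1406 to 1611 in GDF8-treated and 1430 to 1646 in untreated cells. All of these 7 but Fabp4 lay near the detection limit and were not tested, so their sum cannot show whether adipocyte content differed. Of 7 macrophage and 7 endothelial markers, 4 and 3 were tested and 0 passed. Their part in the values above was not tested.

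The calls were also recomputed under 17 other processing settings. Cd36 passed in 15 of them, Lpl in 10 and Ucp2 in 7, and Fabp3 passed in 1 of the 16 that could include it. Their ratios lay between -1.15 and -0.96 for Cd36, -0.84 and -0.59 for Lpl, and 0.45 and 0.53 for Ucp2. With quantile normalisation of single channels 0 of the genes passed, though 7 had an unadjusted p under 0.05 there, as many as in the reported fit.

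**Figure D5:**
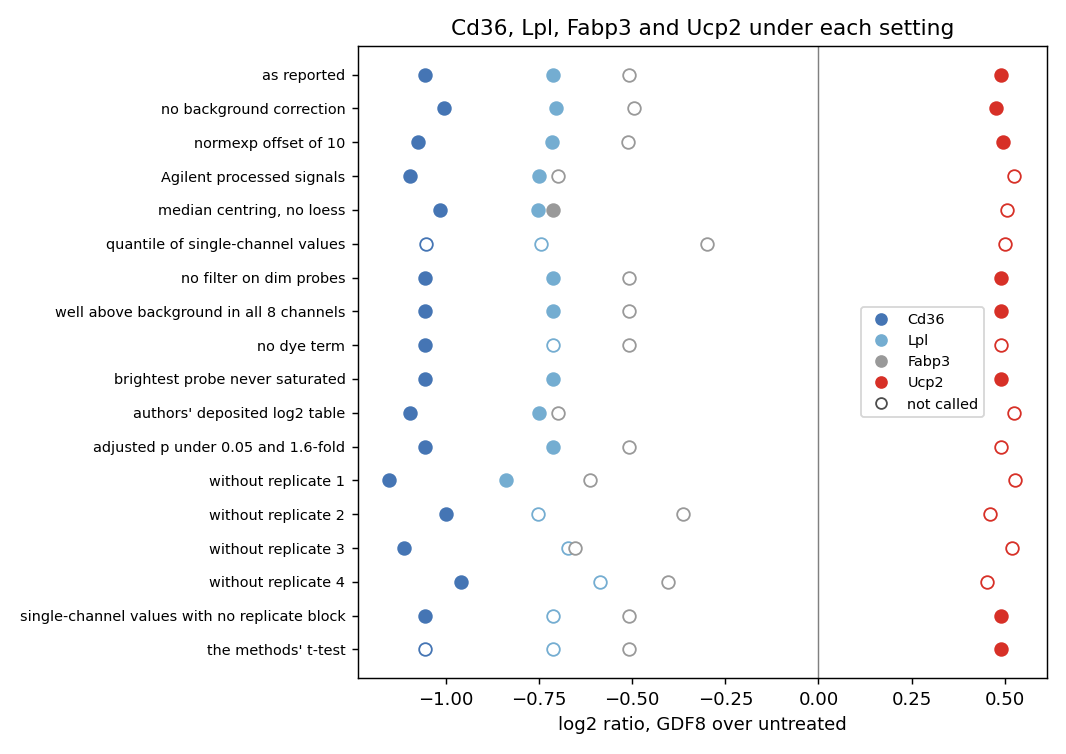
Log2 ratio of GDF8 over untreated cells (x axis) for Cd36, Lpl, Fabp3 and Ucp2 as reported and under 17 other processing settings, filled where the gene passed an adjusted p of 0.05. Each gene keeps its sign in every setting drawn, while the calls of Lpl and Ucp2 come and go.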

How the data were processed

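Per the file headers, the deposited scanner files give the intensity of each spot (mean signal, local median background) in both channels and its log10 ratio (red over green), as exported from Agilent Feature Extraction 9.1.1.1. Their other deposited columns are flags for saturation, outliers and signal well above background. The values of the authors' deposited table are log2 ratios. They equalled the log2 of processed red over green, turned to GDF8 over untreated, in 100% of 40929 single-spot probes (tolerance 0.001), and were not centred, with column medians of 0.14, -0.09, -0.11 and 0.09. Per the series' design text, the authors filtered on flags in GeneSpring and used an unpaired test and a fold over 1.6. The genome build is not given in the sources used here.

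Mean signals were corrected by normexp (offset 50) and normalised by loess within each array, giving control spots no weight (limma 3.58.1, R 4.3.3). Outlier spots were left out and spots of 1 probe averaged. Kept were the 26577 probes whose signal was well above background on all 4 arrays for the GDF8 or for the untreated RNA, and the brightest stood for a gene. Names came from RefSeq for GRCm38.p6 by accession (24375 probes), current symbol (6301) or synonym (2426), and 8072 probes kept the file's name. The fit had a GDF8 term and a dye term per probe, with 2 residual degrees of freedom, and the array is the block. Signals of single channels came from loess followed by Aquantile. Over 4 arrays an exact sign-change test cannot go below a two-sided p of 0.125, so calls rest on the variance limma shares across genes.

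Of the spots that were not controls, 9.20% to 12.1% were saturated in red and 0.74% to 5.49% in green, and 63.3% to 78.8% were well above background in a channel. The number of arrays limits the precision. The correlation of ratios over 26577 probes was 0.44 and 0.45 between arrays of 1 orientation and -0.18 to 0.18 between orientations. Over 21671 probes never saturated it was 0.38 and 0.36 within and -0.07 to 0.38 between orientations. On simulated ratios for this comparison, 82.1% of 67 features changed 1.5-fold, 100% of 67 changed 2-fold and 100% of 66 changed 3-fold were called, with 0.0986% of 17244 unchanged ones. The simulated errors were normal and independent, with the variance fitted for each feature, and no saturation was simulated. These shares therefore do not apply to genes with saturated channels.

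The members and lists were chosen with earlier results of these data known. Values on every array are given for members with an adjusted p under 0.05 and for up to 3 others of a role with the smallest p, other pathway genes are named where they passed, and other probes of a member where they differed. The values per array of Cpt1a, Cpt1b, Ogdh and of further probes were added after the values were seen. Alternatives covered background correction, normalisation, filters, the dye term, saturated probes, the deposited log2 table, a 1.6-fold limit, each replicate left out, single channels with no replicate block and the methods' t-test.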

Additional observations from a re-analysis of the deposited data

Results flagged for a closer look

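Over 44 results (genes and medians by role) Dixon's ratio at the 95% level was used to look for 1 array standing apart. It found 0, where chance gives about 1 in 20 for independent results. The dye effect was left in, so ratios that split by dye orientation could hardly be flagged, and saturated genes shared ratios. The 0 therefore cannot be read against that chance rate.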

How the results depend on the processing

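Against 402 features lower and 150 higher, and 2 genes lower and 1 higher, the counts were 0, 0, 0 and 0 with quantile normalisation of single channels in limma. At an unadjusted p under 0.05 that setting had 2410 features and 7 genes, against 2175 and 7 as reported. Without the dye term 66 features were higher, and 1 gene was lower and 0 higher. With single channels and no replicate block 265 features were lower and 58 higher, and 1 gene was lower. With the methods' t-test 88 and 24 features passed after Benjamini-Hochberg adjustment, with 0 genes lower and 1 higher. At the methods' own threshold 279 and 69 passed, with Cd36 and Lpl lower. With a 1.6-fold limit 61 features were higher. The number of genes higher was also 0 with processed signals, median centring, the deposited table and the 1.6-fold limit. Leaving out 1 replicate gave 76 to 322 features lower, 8 to 107 higher, 1 to 2 genes lower and 0 to 0 higher. The fewest came without replicate 4 (76 and 8) and replicate 2 (107 and 12), and without replicate 3 there were 293 and 107. Over the 17 alternatives the ratio of Cd36 stayed between -1.15 and -0.96, and no called value changed sign. The cause of these changes was not tested. Saturation limits what the brightest probes of oxidation and TCA genes can show.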
